A study of Mus musculus with 12 samples.

Results

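The Slit ligands, their Robo receptors and the netrins with their receptors were followed as 10 genes in sorted mouse mammary epithelial cells: Slit1, Slit2, Slit3, Robo1, Robo2, Ntn1, Ntn4, Neo1, Unc5b and Dcc. They were chosen by name, out of 19938 genes measured, with earlier results of these data known, so shares set beside all genes are descriptions. Each was read by 1 probeset, the group of probes whose signals are summarised into 1 value. Expression was measured on 12 arrays in 4 groups of 3, namely CD24 low and CD24 high cells of WT mice and of Wnt4-deleted mice. All mice were females of 10 to 14 weeks, carried the MMTV::Cre transgene and the mT/mG reporter, which turns from red to green fluorescence where Cre has acted, and gave only lineage-depleted, green cells to the sort. The Wnt4-deleted mice had both Wnt4 alleles floxed (MMTV::Cre+.Wnt4fl/fl.mT/mG) and the WT mice had none floxed (MMTV::Cre+.Wnt4wt/wt.mT/mG). The MMTV promoter drives Cre in mammary epithelium, so the deletion covers only cells in which Cre was active. The labels equate CD24 high with luminal and CD24 low with myoepithelial cells, and they speak both of glands and of grafts, which was not settled here. The title numbers serve as array names: WT CD24 low are 1, 9 and 13, WT CD24 high 2, 10 and 14, Wnt4-deleted CD24 low 3, 11 and 15, and Wnt4-deleted CD24 high 4, 12 and 16. The numbers fall into 3 runs (1 to 4, 9 to 12 and 13 to 16) with 1 array of each group.

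Slits are secreted proteins, first known as repellents of growing axons, that bind Robo receptors on neighbouring cells. In the mammary gland Slit signalling through Robo1 is known to restrain basal cells and side branching, and Slits act with netrin-1 to keep the luminal and basal layers attached to each other. Netrin-1, encoded by Ntn1, is known in the terminal end bud as a product of the inner body cells that is bound by neogenin, encoded by Neo1, on the outer cap cells. Dcc and Unc5b are further netrin receptors, and netrin-4, encoded by Ntn4, is a netrin of basement membranes.

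Slit2 and Slit3 were much higher in CD24 low cells, and their sequences are shown because both genes moved together and because each carries a copy of miR-218, a microRNA, within its span. Sequences are from RefSeq (GRCm38.p6), in which the Slit2 gene lies at chr5:47981291-48307735 and the Slit3 gene at chr11:35121456-35708507. Capitals in the microRNAs mark the seed, bases 2 to 8, which pairs with target transcripts.
miR-218-5p from the Slit2 locus (chr5:48223966-48223986, + strand): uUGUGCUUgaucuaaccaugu
miR-218-5p from the Slit3 locus (chr11:35616840-35616860, + strand): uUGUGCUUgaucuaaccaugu
miR-218-1-3p from the Slit2 locus (chr5:48224005-48224026, + strand): aAACAUGGuuccgucaagcacc
miR-218-2-3p from the Slit3 locus (chr11:35616882-35616903, + strand): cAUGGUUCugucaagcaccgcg
The 5p strands of both loci are the same 21 bases and share a seed, whereas the 3p strands differ in their seeds.

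The 250 bases before a RefSeq transcript start of both Slit genes follow, with capitals on a TATAAA box.
Slit2 (chr5:47982905-47983154, + strand): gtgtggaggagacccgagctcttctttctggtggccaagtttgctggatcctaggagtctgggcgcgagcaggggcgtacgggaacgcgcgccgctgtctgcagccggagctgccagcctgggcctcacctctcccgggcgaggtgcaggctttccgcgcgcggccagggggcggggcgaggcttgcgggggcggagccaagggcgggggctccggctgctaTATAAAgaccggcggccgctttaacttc
Slit3 (chr11:35121206-35121455, + strand): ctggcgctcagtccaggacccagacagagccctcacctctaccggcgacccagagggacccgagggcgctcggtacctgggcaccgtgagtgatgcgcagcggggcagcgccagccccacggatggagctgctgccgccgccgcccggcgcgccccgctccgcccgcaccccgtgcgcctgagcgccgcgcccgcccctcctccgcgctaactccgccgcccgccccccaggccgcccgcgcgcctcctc
The Slit2 window holds 1 TATAAA, which begins 28 bases before the start, and the Slit3 window holds none. Of 32851 promoter windows of this length, 12.4% hold TATAAA on either strand. G and C make up 69.6% of the Slit2 window and 78.8% of the Slit3 window, against a median of 52.4% over all windows. Slit1, Ntn1 and Dcc were left out of the promoter search, which covered 9 windows of the other 7 genes. Among these the TEAD letters GGAATG were in none, the TCF/LEF core CTTTG was in that of Unc5b and the E2-box CAGGTG was in that of Robo1, searched on both strands. These letters occur in 12.6%, 48.6% and 17.2% of all windows, and a match or its absence is a description of these letters only. The only Robo1 window searched (chr16:72662899-72663148, + strand) lies inside the gene, which starts at chr16:72027518. The bases before that gene start were not searched.

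The sort and the deletion were checked first. All 12 myoepithelial markers, such as Krt5, Krt14 and Acta2, were lower in CD24 high cells of both genotypes, and all 11 measured luminal markers, such as Krt8 and Krt18, were higher. Wnt4 gave 7.42, 7.92 and 7.62 in the WT CD24 high arrays and 6.11, 6.46 and 6.78 in the Wnt4-deleted CD24 high arrays, with no overlap between the genotypes, although the change of -1.20 (SE 0.19) did not pass once adjusted for all genes (adjusted p = 0.416). A second Wnt4 probeset, not used in the fit, gave 6.37, 6.53 and 6.57 in the WT and 5.37, 5.65 and 6.74 in the Wnt4-deleted CD24 high arrays, so that array 16 lay above every WT array there and the genotypes overlapped. The Wnt4 difference among CD24 low arrays, on the first probeset, was -0.14. CD24 low arrays also carried signal of other cell types in unequal amounts. The mean of 11 endothelial markers, all above background in every CD24 low array, was 6.70 and 6.61 in arrays 1 and 3 but 8.16 to 9.27 in the other 4, against 5.34 to 6.57 in CD24 high arrays. The mean of 10 fibroblast markers reached 8.94 in array 9 and 8.64 in array 11, and lay between 6.23 and 6.99 in the other 4 CD24 low arrays. Arrays 9 and 11 also had the highest means of 8 pericyte markers, 6.94 and 7.31, against 5.61 to 6.20 in the other 4. Skeletal muscle markers ran the other way, with a mean of 8 markers of 7.03 in array 1 and 7.88 in array 3, and of 5.50 to 5.88 elsewhere among CD24 low arrays. Arrays of bulk samples cannot tell fewer cells of a type from less RNA per cell.

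All values below are RMA values on the log2 scale, and a change is a difference of group means on that scale. The arrays hold no detection call, so the 95th percentile of 1194 olfactory and vomeronasal receptor genes on the same array, genes not expected in mammary cells, served as a background reference; it lay between 4.84 and 5.20. Of the 10 genes, 6 were above it on all 12 arrays: Slit3, Robo1, Ntn1, Ntn4, Neo1 and Unc5b. Slit2 and Robo2 were above it in all 6 CD24 low arrays and on none of the 6 CD24 high arrays. Slit1 and Dcc were below it on all 12 arrays.

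**Figure D1:**
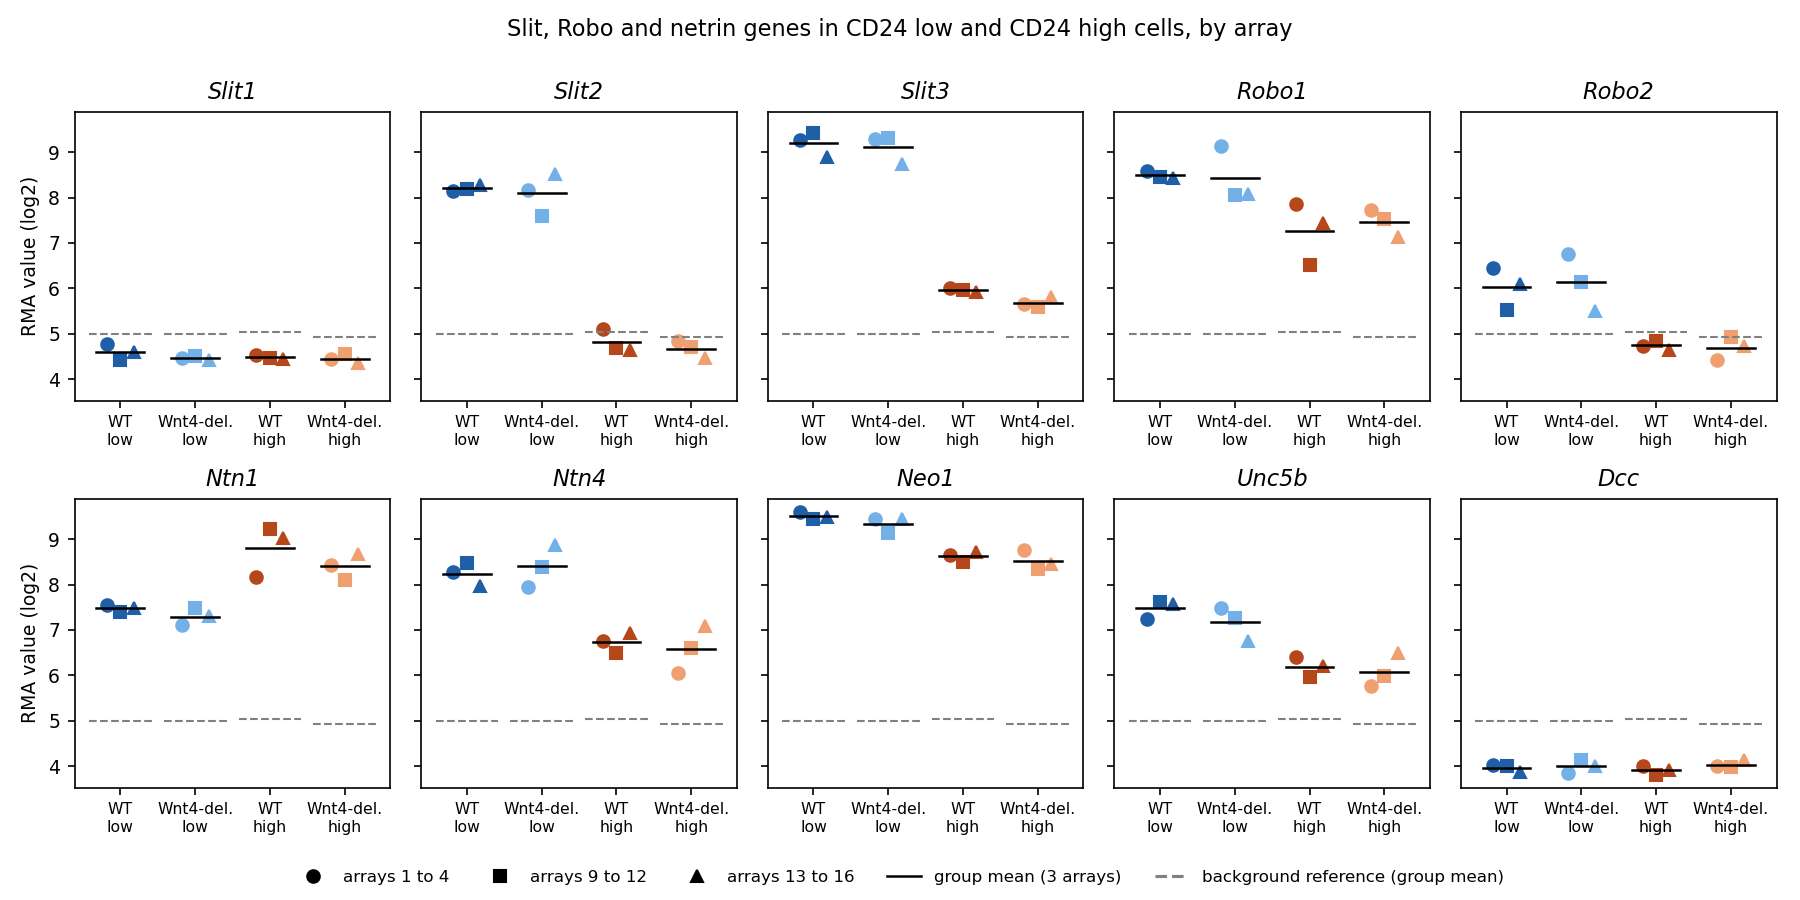
RMA values (log2, y axis) of the 10 genes on each of the 12 arrays, in 4 groups of 3 (x axis); marker shapes are the 3 runs of array numbers, black lines are group means and dashed lines are the mean background reference. Slit2 and Slit3 show the widest gap between CD24 low and CD24 high cells, Ntn1 is the 1 gene that is higher in CD24 high cells, and Slit1 and Dcc stay under the reference.

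The first question was how the genes differed between the 2 cell fractions. In WT cells 8 of the 10 genes passed the test between CD24 high and CD24 low (limma, adjusted p under 0.05). Of these 7 were lower in CD24 high cells and 1, Ntn1, was higher. Over all genes tested 16.1% passed, 8.21% as lower and 7.93% as higher. In Wnt4-deleted cells 7 of the 10 passed, 6 as lower and Ntn1 as higher, against 16.4% of all genes, 8.22% as lower and 8.23% as higher. The median change of the 10 genes was -1.25 in WT and -1.02 in Wnt4-deleted cells, while that of all genes was 0.02 and 0.01. As lower in both genotypes passed 6 of the 10 and 6.5% of all genes, and as higher in both passed Ntn1 and 5.86% of all genes. The CD24 low arrays of both genotypes lay above all 6 CD24 high arrays for 7 genes, which 8.33% of all genes did, and below all of them for Ntn1, which 8.19% did.

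Among the ligands, Slit2 was read at 8.15, 8.19 and 8.28 in the WT CD24 low arrays and at 5.10, 4.69 and 4.65 in the WT CD24 high arrays. In the Wnt4-deleted arrays it was 8.16, 7.58 and 8.53 in CD24 low cells and 4.83, 4.70 and 4.46 in CD24 high cells. The fractions were far apart in each genotype, and every CD24 high value lay under the background reference of its array. The fitted change was -3.40 (SE 0.22, adjusted p = 1.9e-06) in WT and -3.43 (SE 0.22, adjusted p = 1.7e-06) in Wnt4-deleted cells. By group means, with the background reference in place of the CD24 high signal, Slit2 was at least 9.08-fold higher in WT CD24 low cells. In Wnt4-deleted CD24 low cells it was at least 8.93-fold higher. Such folds leave out the spread between arrays.

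Slit3 was measured at 9.27, 9.42 and 8.90 in the WT CD24 low arrays and at 6.01, 5.96 and 5.91 in the WT CD24 high arrays. Wnt4-deleted cells had 9.30, 9.30 and 8.73 in CD24 low and 5.66, 5.59 and 5.80 in CD24 high arrays. Unlike Slit2, Slit3 kept a signal above the reference in CD24 high cells, by 0.57 to 1.04. Its level was 9.43-fold lower there in WT (change -3.24, SE 0.18, adjusted p = 6.6e-07) and 10.8-fold lower in Wnt4-deleted cells (change -3.43, SE 0.18, adjusted p = 4.8e-07). Slit1, the third Slit, was between 4.36 and 4.76 on all 12 arrays, below the reference, and its differences between fractions were -0.10 and -0.02 (adjusted p = 0.661 and 0.956).

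The 2 miR-218 hairpin loci have probesets of their own, which were looked up after the values of their host genes had been seen. Mir218-1, in the Slit2 gene, had a mean of 4.91 ± 0.46 (SD, n = 3) in WT CD24 low cells and 3.74 ± 0.077 in WT CD24 high ones (adjusted p = 0.0270). In Wnt4-deleted cells the means were 5.15 ± 0.70 and 4.18 ± 0.25, and the difference did not pass (adjusted p = 0.0622). All 6 CD24 high values were under the reference, so no size is given for either difference. Both CD24 low means rest on values on either side of the reference, from 0.73 below to 0.66 above it. Mir218-2, in the Slit3 gene, stayed at least 1.07 below the reference on every array. These array signals cannot separate a hairpin from the transcript of the gene around it.

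Both Robo receptors had lower values in CD24 high cells, although Robo1 passed the test in WT cells only. With the run of array numbers as a fixed replicate block it passed in Wnt4-deleted cells too (adjusted p = 0.0279), and with the run as a random block it did not. Robo1 gave 8.59, 8.45 and 8.43 in the WT CD24 low arrays and 7.85, 6.52 and 7.44 in the WT CD24 high arrays. Its values were 9.14, 8.05 and 8.08 in Wnt4-deleted CD24 low and 7.73, 7.52 and 7.13 in Wnt4-deleted CD24 high arrays. The fractions did not overlap in either genotype, but array 10 at 6.52 and array 3 at 9.14 stood away from the others of their groups. The change was -1.22 in WT cells (SE 0.35, adjusted p = 0.0352) and -0.97 in Wnt4-deleted cells (SE 0.35, adjusted p = 0.0892), which did not pass. The difference of the 2 changes was -0.26 (95% confidence interval -1.34 to 0.83), so that Robo1 was not shown to differ between the genotypes. In WT cells the call was lost in 6 of the 12 fits that left out 1 array, those without array 1, 9, 10, 12, 13 or 14, with changes of -1.31 to -0.84 in these 6.

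Robo2, a Slit receptor closely related to Robo1, was 6.46, 5.52 and 6.10 in WT CD24 low and 4.73, 4.84 and 4.65 in WT CD24 high arrays. Wnt4-deleted cells had 6.76, 6.15 and 5.50 in CD24 low and 4.42, 4.92 and 4.73 in CD24 high arrays. Every CD24 low array was above every CD24 high array, and all 6 of the latter lay under the reference. The fitted changes were -1.28 (SE 0.30, adjusted p = 0.0133) and -1.45 (SE 0.30, adjusted p = 0.0067). By group means against the reference, Robo2 was at least 1.998-fold higher in WT and at least 2.31-fold higher in Wnt4-deleted CD24 low cells. Single CD24 low arrays lay 0.59 to 1.45 in WT and 0.49 to 1.90 in Wnt4-deleted cells above their own reference (log2). Without array 1 the WT change was -1.07 and did not pass (adjusted p = 0.0551).

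The netrins ran in opposite directions. Ntn1 measured 7.56, 7.39 and 7.49 in the WT CD24 low arrays and 8.16, 9.22 and 9.02 in the WT CD24 high arrays. In Wnt4-deleted cells it was 7.11, 7.47 and 7.30 in CD24 low and 8.43, 8.10 and 8.68 in CD24 high arrays. No CD24 low value reached a CD24 high one. Ntn1 was 2.50-fold higher in WT CD24 high cells (change 1.32, SE 0.25, adjusted p = 0.0036) and 2.15-fold higher in Wnt4-deleted CD24 high cells (change 1.11, SE 0.25, adjusted p = 0.0098). Only 2.37% of all genes had a larger rise between the WT fractions.

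Ntn4 was 8.27, 8.47 and 7.96 in WT CD24 low and 6.76, 6.50 and 6.93 in WT CD24 high arrays. The Wnt4-deleted values were 7.94, 8.39 and 8.87 in CD24 low and 6.05, 6.60 and 7.08 in CD24 high arrays. The CD24 low and CD24 high values did not overlap in either genotype. Ntn4 was 2.84-fold lower in CD24 high cells of WT mice (change -1.51, SE 0.28, adjusted p = 0.0036) and 3.53-fold lower in those of Wnt4-deleted mice (change -1.82, SE 0.28, adjusted p = 0.0011). The basement-membrane netrin was therefore higher in the CD24 low fraction, and netrin-1 in the CD24 high fraction.

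Of the 2 netrin receptors above background, Neo1 varied less between arrays than Unc5b. Its WT values were 9.60, 9.44 and 9.48 in CD24 low and 8.66, 8.50 and 8.72 in CD24 high arrays. The Wnt4-deleted values were 9.43, 9.14 and 9.45 and 8.76, 8.35 and 8.45. The change was small but exceeded the spread in both genotypes, with 1.84-fold lower levels in WT CD24 high cells (change -0.88, SE 0.14, adjusted p = 0.0012) and 1.76-fold lower levels in Wnt4-deleted ones (change -0.82, SE 0.14, adjusted p = 0.0018).

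Unc5b, also a receptor known from endothelium, had 7.25, 7.61 and 7.57 in WT CD24 low and 6.40, 5.96 and 6.20 in WT CD24 high arrays. Wnt4-deleted cells had 7.47, 7.27 and 6.75 and 5.77, 5.99 and 6.49. The fractions stood apart in both genotypes, by least in arrays 15 and 16. Levels in CD24 high cells were 2.45-fold lower in WT (change -1.29, SE 0.23, adjusted p = 0.0024) and 2.12-fold lower in Wnt4-deleted mice (change -1.08, SE 0.23, adjusted p = 0.0069). Dcc, the classical netrin-1 receptor of axons, was between 3.81 and 4.13 on all 12 arrays, at least 0.81 below the reference, and its differences between fractions were -0.06 and 0.04 (adjusted p = 0.828 and 0.890).

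**Figure D2:**
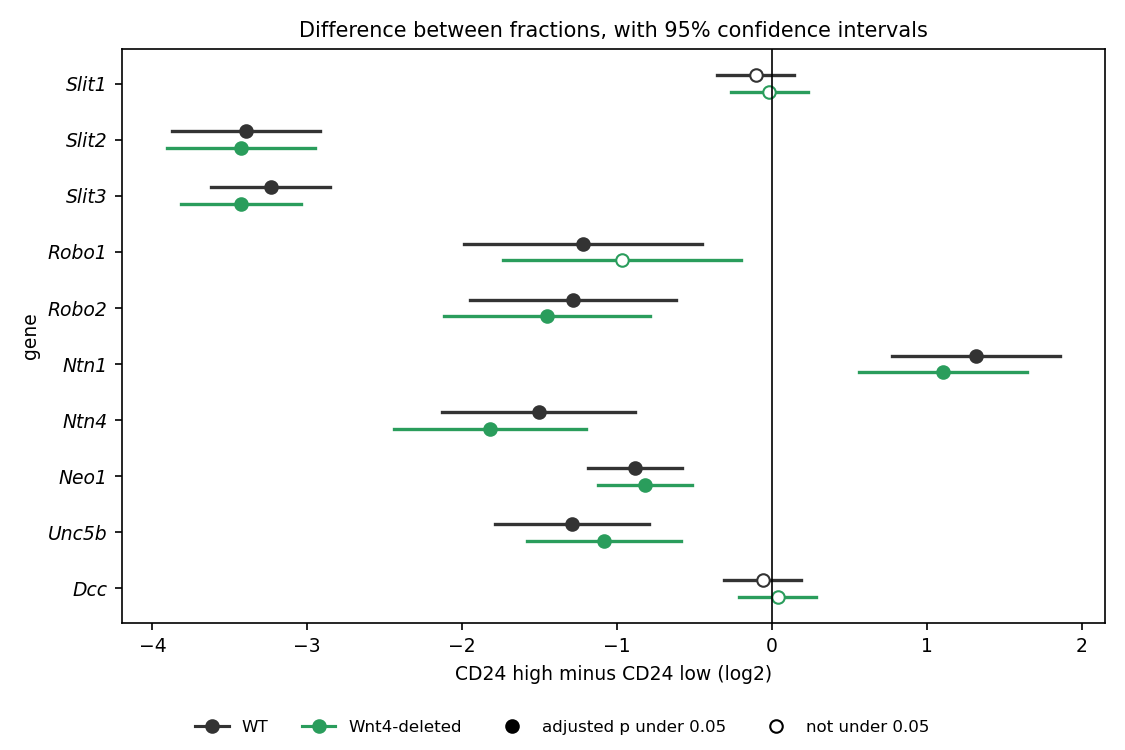
Difference between CD24 high and CD24 low cells (log2, x axis) for the 10 genes (y axis) in WT and in Wnt4-deleted cells, with 95% confidence intervals from the limma fit; filled points have an adjusted p under 0.05. Slit2 and Slit3 lie between -3.43 and -3.24, Robo1, Robo2, Ntn4, Neo1 and Unc5b between -1.82 and -0.82, and Ntn1 alone lies above 1, while Slit1 and Dcc lie near 0.

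Within each run of 4 arrays the fractions kept their direction. Over the 3 runs and both genotypes the difference was -4.07 to -2.88 for Slit2, -3.71 to -2.93 for Slit3, -1.93 to -0.53 for Robo1, -2.35 to -0.68 for Robo2, 0.60 to 1.83 for Ntn1, -1.97 to -1.03 for Ntn4, -0.995 to -0.674 for Neo1 and -1.70 to -0.26 for Unc5b. The endothelial and fibroblast signal moved with the CD24 low fraction. All 11 endothelial and 9 of 10 fibroblast markers were lower in CD24 high cells of each genotype. As lower passed 5 endothelial and 2 fibroblast markers in WT, and 6 and 2 in Wnt4-deleted cells. Over all genes 8.21% passed as lower in WT and 8.22% in Wnt4-deleted cells. In run 1 to 4, where the CD24 low arrays had the lowest endothelial and the highest skeletal muscle means, the WT and Wnt4-deleted differences were -3.05 and -3.33 for Slit2, -3.26 and -3.64 for Slit3, -0.74 and -1.42 for Robo1, -1.72 and -2.35 for Robo2, -1.51 and -1.89 for Ntn4, -0.95 and -0.67 for Neo1, and -0.85 and -1.70 for Unc5b. The Robo2 difference was larger in this run than in either other run in both genotypes, and array 3, with the highest skeletal muscle mean, had the highest Robo1 and Robo2 values. Robo4, an endothelial Robo that was singled out after its values were seen, differed by -0.63 and -0.46 in that run and by -2.60 to -1.67 in the other runs, and did not pass (adjusted p = 0.122 and 0.0763). Beyond these values, the part of other cell types in the differences was not tested.

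**Figure D3:**
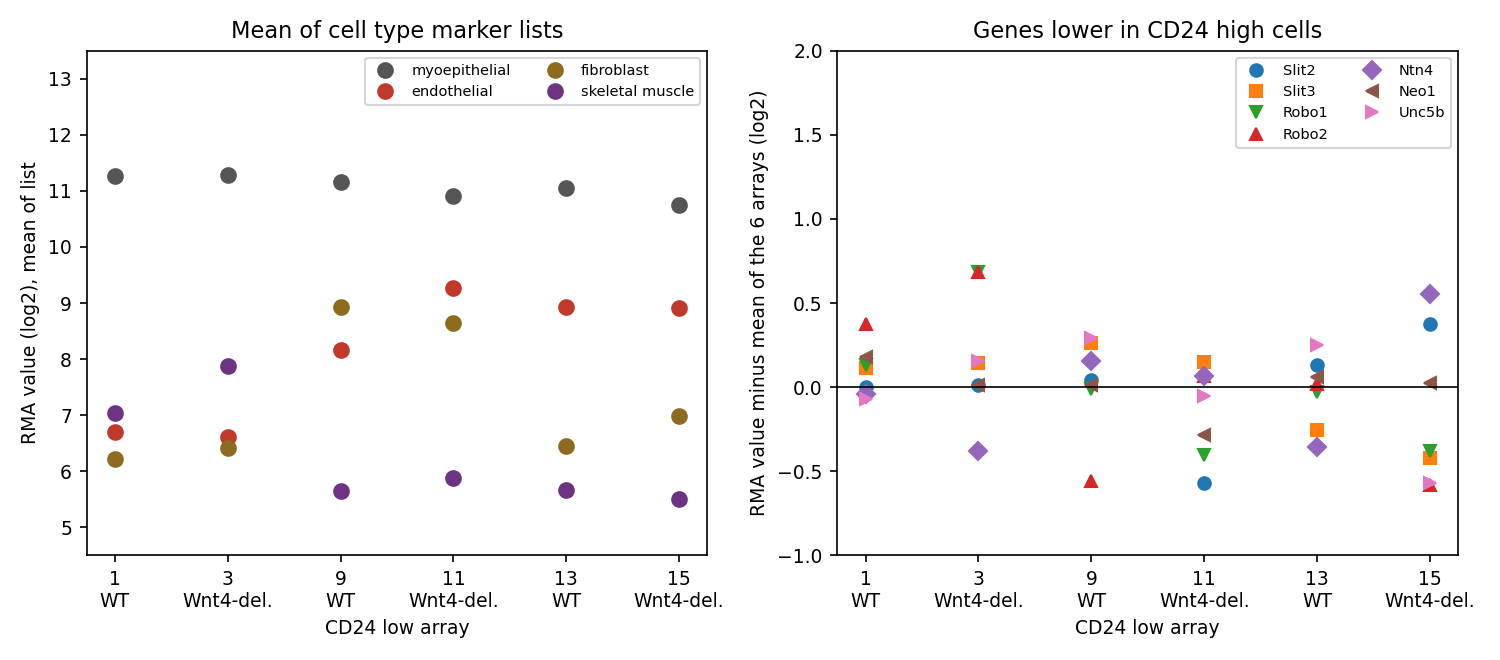
Left, mean RMA value (log2, y axis) of 4 cell type marker lists on the 6 CD24 low arrays (x axis); right, RMA values of 7 genes on the same arrays, each minus its own mean over the 6 arrays (log2). The endothelial mean runs from 6.61 to 9.27, the fibroblast mean from 6.23 to 8.94 and the skeletal muscle mean from 5.50 to 7.88. The centred values of the 7 genes run from -0.58 (Robo2, array 15) to 0.69 (Robo1, array 3). The part of other cell types in these values was not tested.

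The second question was whether deletion of Wnt4 changed these genes. None of the 10 passed in CD24 low cells or in CD24 high cells, where over all genes 0.00502% passed in each, which is 1 gene. At an unadjusted p under 0.05, again none of the 10 was called in either fraction, against 3.06% of all genes for CD24 low and 1.99% for CD24 high cells. In CD24 low cells the differences ran from -0.31 for Unc5b (95% confidence interval -0.81 to 0.18) to 0.16 for Ntn4 (-0.46 to 0.79). In CD24 high cells they ran from -0.40 for Ntn1 (-0.94 to 0.15) to 0.19 for Robo1 (-0.58 to 0.96). For Slit2 the differences were -0.12 (-0.60 to 0.36) and -0.15 (-0.63 to 0.33) in CD24 low and CD24 high cells, and for Neo1 -0.17 (-0.47 to 0.14) and -0.10 (-0.41 to 0.20). The widest intervals were those of Robo1.

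Slit3 in CD24 high cells was the 1 case in which the genotypes did not overlap. All 3 Wnt4-deleted arrays (5.66, 5.59 and 5.80) were below all 3 WT arrays (6.01, 5.96 and 5.91), a difference of -0.28 (95% confidence interval -0.66 to 0.11, adjusted p = 0.9999). Groups did not overlap for 7% of all genes in this comparison, and in CD24 low cells for 6.77% of all genes and for none of the 10. The Wnt4 effect was also compared between the fractions. The difference of the effects, CD24 low minus CD24 high, lay between -0.26 for Robo1 and 0.31 for Ntn4 and passed for none of the 10 genes or of all genes (0%). At an unadjusted p under 0.05 it was called for none of the 10 and for 1.37% of all genes.

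**Figure D4:**
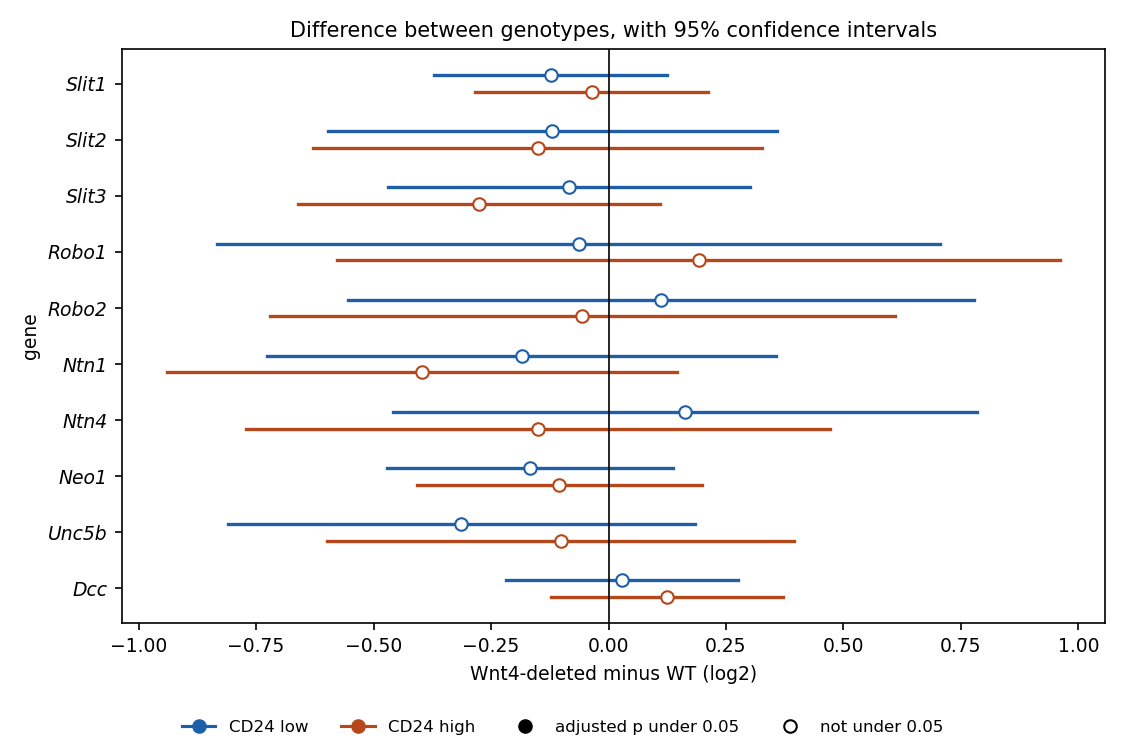
Difference between Wnt4-deleted and WT cells (log2, x axis) for the 10 genes (y axis) in each CD24 fraction, with 95% confidence intervals from the limma fit; open points have an adjusted p of 0.05 or more. All 20 points are open and every interval holds 0, the widest being those of Robo1.

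Other genes of these pathways were counted in 4 lists, also chosen with earlier results of these data known. Of 18 other ligands and receptors measured, 13 had lower and 5 higher values in WT CD24 high cells (median -0.16, all genes 0.02). As lower passed 4 in Wnt4-deleted cells, beside 8.22% of all genes, and 3 in WT cells. None passed as higher in either genotype. That is 3 of 18 called in WT where 16.1% of all genes were, 8.21% as lower. The 3 were Flrt2, whose protein binds Unc5 receptors, at -1.90 (adjusted p = 4.5e-05), and Rgmb at -0.72 (adjusted p = 0.0098) and Rgma at -0.48 (adjusted p = 0.0274), repulsive guidance molecules that bind neogenin. All 3 were lower in Wnt4-deleted CD24 high cells as well, at -1.96, -0.65 and -0.62. The means of Flrt2 in CD24 high cells, 4.78 in WT and 4.82 in Wnt4-deleted, were below the range of the background reference. The Flrt2 changes are therefore not measured sizes.

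Of 25 effectors inside the cell, 17 had lower and 8 higher values in CD24 high cells of each genotype (median -0.09 in WT). In WT 3 passed as lower and 2 as higher, and in Wnt4-deleted cells 3 passed as lower and 4 as higher. These 5 and 7 of 25 stand beside 16.1% and 16.4% of all genes called. Fyn, a Src-family kinase used by netrin receptors, changed by -2.15 (adjusted p = 3.8e-05), Evl by -1.10 (adjusted p = 0.0013) and the kinase Abl1 by -0.91 (adjusted p = 0.0032). The means of Fyn in CD24 high cells, 5.24 in WT and 5.17 in Wnt4-deleted, were close to the mean background references of 5.03 and 4.93. Enah rose by 1.30 (adjusted p = 0.0019) and the adaptor Nck2 by 0.80 (adjusted p = 0.0087). Evl and Enah encode members of 1 family of actin regulators, and they differed in opposite directions between the fractions.

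Among 11 heparan sulfate proteoglycans and other surface cofactors, 10 had lower and 1 higher values in WT CD24 high cells (median -1.03). In Wnt4-deleted ones 9 were lower and 2 higher (median -0.71). As lower passed 6 in WT and 4 in Wnt4-deleted cells, where 8.21% and 8.22% of all genes did. None passed as higher, where 7.93% and 8.23% of all genes did. Hspg2, encoding the basement-membrane proteoglycan perlecan, changed by -3.23 (adjusted p = 8.3e-05) and Gpc4 by -2.09 (adjusted p = 8.8e-05). Gpc3 was under the reference on all 6 CD24 high arrays. By group means against the reference it was at least 4.04-fold higher in WT CD24 low cells (means 7.04 and 4.49, adjusted p = 0.000596). Dag1, encoding dystroglycan, which binds Slits, changed by -1.23 in WT (adjusted p = 0.0410) and by -0.67 in Wnt4-deleted cells, where it did not pass (adjusted p = 0.275). Perlecan is also made by endothelium, and the part of other cell types in the Hspg2 difference was not tested. In run 1 to 4, with the lowest endothelial means among CD24 low arrays, Hspg2 differed by -3.37 in WT and -3.21 in Wnt4-deleted cells. In the other runs it differed by -3.32 to -2.06 over both genotypes.

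Of 7 genes linked to Slit and Robo in mammary cells, 6 had lower values in WT CD24 high cells and 5 in Wnt4-deleted ones. As lower in both genotypes passed 3 of the 7 and 6.5% of all genes. The chemokine Cxcl12 changed by -4.59 in WT (adjusted p = 8.5e-07) and -4.49 in Wnt4-deleted cells, Snai2, a transcription factor of basal cells, by -3.97 (adjusted p = 2.6e-06) and -4.23, and the Notch ligand Jag1 by -2.17 (adjusted p = 0.000351) and -1.76. The mean of Cxcl12 in WT CD24 high cells, 5.10, was in the range of the background reference, and that in Wnt4-deleted CD24 high cells was 5.51. Cxcr4, the receptor of Cxcl12, differed by 0.18 and 0.55 and did not pass. None of the genes of the 4 lists passed in either comparison of genotypes.

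**Figure D5:**
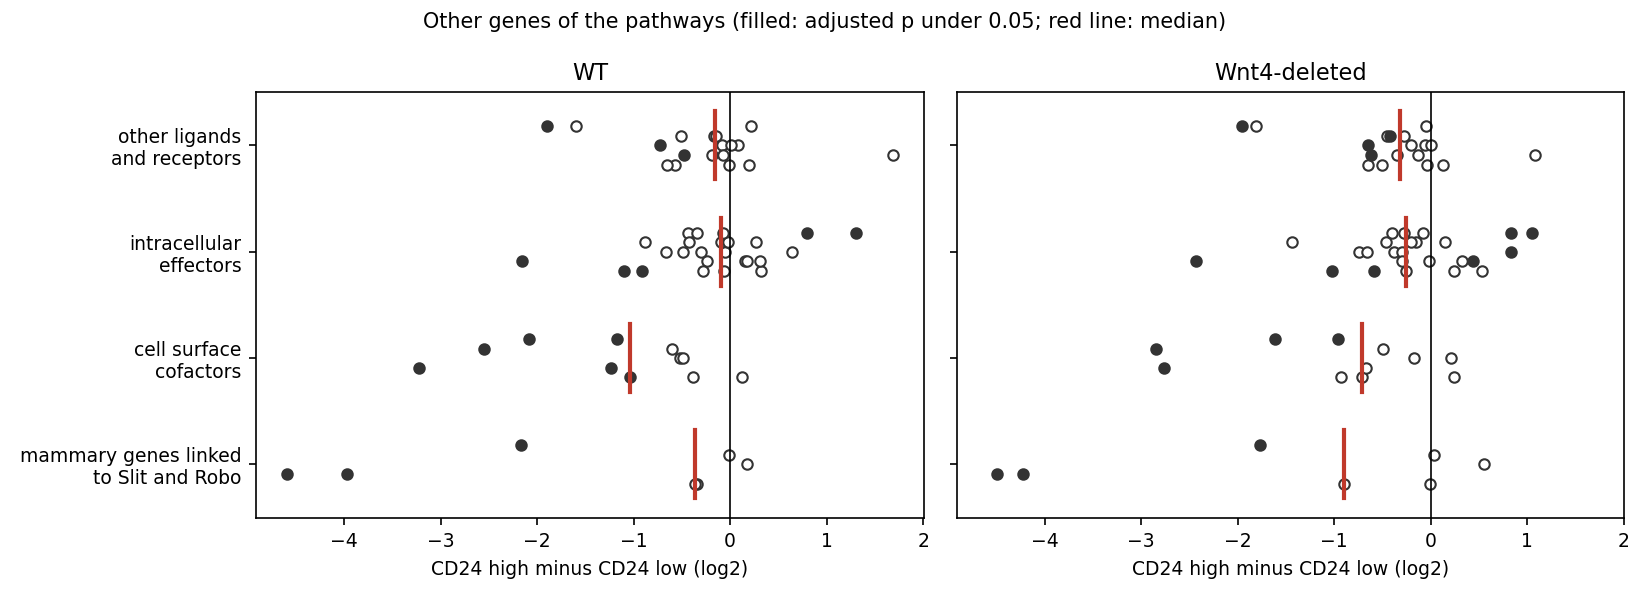
Difference between CD24 high and CD24 low cells (log2, x axis) for the genes of 4 pathway lists (y axis) in WT, left, and Wnt4-deleted cells, right; each point is 1 gene, filled at an adjusted p under 0.05, and red lines are list medians. The surface cofactors have medians of -1.03 and -0.71, and the lowest points are Cxcl12 and Snai2.

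Genes with the most similar profile were listed for the 7 genes that passed in both genotypes, by the root mean square difference of log2 values over the 12 arrays after centring each gene on its mean. For Slit2 these were Mir100hg (0.24), Popdc2 (0.25) and Sfrp1 (0.25), the last encoding a secreted Wnt inhibitor. For Slit3 they were Sema5a (0.16), Itga9 (0.20) and Kcnq5 (0.22), of which Sema5a encodes a semaphorin, another class of guidance cue. Robo2 was nearest to Frem2 (0.22), Dsc3 (0.23) and Emid1 (0.24), and Ntn4 to Pknox2 (0.25), DQ267102 (0.27) and Apcdd1 (0.29). Ntn1 was nearest to Ldhd (0.19), Spns3 (0.19) and Hhipl2 (0.21). Neo1, with the tightest matches, was nearest to Tprgl (0.12), Pygo1 (0.12) and Hyal2 (0.13), and Unc5b to Slc12a4 (0.14), Plch2 (0.16) and Adgrb2 (0.17). The distances describe these 12 arrays, most of whose variation lies between the 2 fractions.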

How the data were processed

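Affymetrix gene arrays, 3 for each of 4 groups and 12 in all, measured the RNA of the sorted cells. Total RNA was extracted with Trizol, then amplified and biotin-labelled with Ovation Pico and FL-Ovation kits, per the labels. The authors deposited log2 values, made by RMA (background correction, quantile normalisation and probe summary) in Affymetrix Expression Console 1.1.2800, per the submitters' processing notes. Quantile normalisation gives all arrays 1 distribution of probe intensities before the probe summary, so changes are relative to it. Array medians of the deposited values still ran from 5.64 to 5.82.

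Of 35556 probesets, 21789 carried 1 gene symbol and entered the tests. The probeset with the highest mean was used for a gene with several, which gave 19938 genes. Limma 3.58.1 in R 4.3.3 (lmFit, eBayes, 8 residual degrees of freedom) was fitted to all genes, with 1 mean per group, two-sided tests and Benjamini-Hochberg adjustment within each of 5 comparisons at 0.05. The script was tested on simulated data. Groups came from titles. The labels tie no array to an experiment, so p-values reflect only the spread among these arrays, which may be technical, and the number of arrays limits the precision.

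The genes and lists were chosen with earlier results of these data known. Named were all 10 genes, up to 4 passing genes per direction and pathway list, and the 3 nearest profiles per gene passing in both genotypes. Alternatives covered scaling, filtering, moderation, blocks by run, subsets of runs and leaving out each array.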

Additional observations from a re-analysis of the deposited data

How the results depend on the processing

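Each comparison was refitted under up to 24 other settings, 12 of which left out 1 array. Of the 8 genes passing between the WT fractions, 3 (Slit2, Slit3 and Neo1) passed with arrays 1 to 4 and 13 to 16 only and 5 (Slit2, Slit3, Ntn4, Neo1 and Unc5b) with arrays 1 to 12 only, settings that leave 2 arrays a group, and 6 to 8 passed without 1 array. In Wnt4-deleted cells 5 to 8 of the 10 passed over all settings and 7 to 8 without 1 array. Slit2 and Slit3 passed in both genotypes under all 24 settings. Robo1 passed in 16 of 24 settings in WT and in 3 of 24 in Wnt4-deleted cells. No change that passed reversed its direction. In the comparisons of genotypes and of their effects 0 of the 10 passed under any setting; 52 of 701 values changed sign, none of them past the threshold before or after.

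The runs of array numbers are not named as experiments in the labels. With the run as a fixed replicate block, 8 genes passed in WT and 8 in Wnt4-deleted cells, where Robo1 was gained (adjusted p = 0.0279). With the run as a random replicate block the numbers were 8 and 7, and Robo1 was not gained. Deviations from group means correlated between -0.14 and 0.70 for arrays of 1 run and between -0.53 and 0.36 across runs, and 9 of 12 arrays were on average closest to their own run. Over all genes, arrays 1 to 12 only called 1339 and arrays 1 to 4 and 13 to 16 only 1374 between the WT fractions, against 3218. Signals of Slit1 and Dcc, and of Slit2, Robo2, Gpc3 and Mir218-1 in CD24 high cells, were not above background, so fitted changes there are not measured sizes. The same holds for Flrt2, whose means in CD24 high cells were below the reference.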
